A study of Oryza sativa Japonica Group with 2 samples.

Results

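The peak regions described here lie on the arms of rice chromosomes 3, 7 and 10, in a list of sites bound by the NF-Y subunit NF-YC11 in endosperm, the part of the grain that stores starch. A region was counted as an arm region when its summit lay more than 3 Mb from the centromere, taken at 19.4 Mb on chromosome 3, 12.1 Mb on chromosome 7 and 8.2 Mb on chromosome 10. Rows of the authors' table that shared chromosome, start and end were merged into 1 region. This gave 888 arm regions with 941 summits, 21.2% of the 4193 regions of the whole list. The rule uses position alone, and it was set with earlier results of these data known.

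The list comes from 1 chromatin immunoprecipitation (ChIP) library, precipitated with an anti-FLAG antibody from Oryza sativa Japonica Group endosperm carrying NF-YC11-FLAG, and 1 input library of the same tissue without antibody. Both were harvested 7 days after pollination. The labels used here do not give the promoter that drives the tagged protein, the number of lines or whether the native gene was intact, and no untagged control was analysed. With 1 library per group there is no replicate error, no p-value is given, and no interval covers variation between libraries. Intervals of densities, ratios, shares and single folds cover counting error only, and those of medians the spread over regions only.

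NF-Y is a heterotrimeric transcription factor found across eukaryotes. Its NF-YB and NF-YC subunits pair through histone-fold domains that resemble those of core histones, and the NF-YA subunit contacts the CCAAT box and gives the complex its sequence specificity. Plants carry expanded families of each subunit, and several rice members are expressed mainly in the endosperm, where they have been tied to grain filling. The chromosomes compared here share history: segments of chromosome 3 correspond to segments of chromosomes 7 and 10 through duplications in the ancestry of the grasses. Chromosome 3 is known as gene-rich, and the short arm of chromosome 10 as rich in heterochromatin. Genes near the regions, the duplicated segments and the sequence under the summits were not analysed here, because the sources used here do not name the genome build of the coordinates.

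The arms of chromosome 3 held more regions per Mb than those of chromosomes 7 and 10. Chromosome 3 had 437 arm regions over 30.4 Mb, or 14.4 per Mb (95% Poisson interval 13.1 to 15.8). Chromosomes 7 and 10 together had 451 over 40.6 Mb, or 11.1 per Mb (10.1 to 12.2). The ratio of the densities was 1.29 (95% exact interval 1.13 to 1.48), so it was larger than counting error if regions are independent of each other. Among strongly called regions, those whose −log10 q was 5 or more, the ratio was 1.33 with an interval of 0.894 to 1.99, which includes 1. Chromosome 3 stood above each partner taken alone, at 1.31 times (1.12 to 1.54) the 10.9 per Mb of chromosome 7 and 1.26 times (1.07 to 1.50) the 11.4 per Mb of chromosome 10. Between the partners, chromosome 7 over chromosome 10, the ratio was 0.963 (0.796 to 1.17), whose interval includes 1.

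Set against the same arms of its partners, the short arm of chromosome 3 stood above counting error and the interval for its long arm included 1. The short arm held 243 regions, 14.8 per Mb (13.0 to 16.8), which was 1.46 times (1.18 to 1.81) the 10.1 per Mb of the short arms of chromosomes 7 and 10. Its long arm held 194 regions, 13.8 per Mb (12.0 to 15.9), and its ratio to the 11.7 per Mb of the other long arms was 1.19 (0.987 to 1.43). The intervals of these ratios overlap, and the difference between them was not tested. Among regions with a −log10 q of 5 or more the order was not kept. The long arm of chromosome 3 then had 1.93 per Mb (1.27 to 2.80) and its short arm 1.59 (1.04 to 2.32). The long arms of chromosomes 7 and 10 had 1.40 and 1.09, and their short arms 1.32 and 1.54. The intervals of all these arms overlap.

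Counted as merged regions, long and short arms of the same chromosome had a density ratio whose interval included 1 on each of the 3 chromosomes. On chromosome 3 the long arm had 13.8 regions per Mb and the short arm 14.8, a long-to-short ratio of 0.934 (0.770 to 1.13). On chromosome 7 the long arm held 168 regions, 11.8 per Mb (10.04 to 13.7), against 88 regions, 9.67 per Mb (7.76 to 11.9), on the short arm, a ratio of 1.22 (0.934 to 1.59). Counted as summits, the chromosome 7 ratio was 1.30 (1.005 to 1.70), an interval above 1; summits of 1 region are not independent of each other. On chromosome 10 the long arm held 138 regions, 11.5 per Mb (9.70 to 13.6), against 57 regions, 11.0 per Mb (8.30 to 14.2), on the short arm, a ratio of 1.05 (0.768 to 1.46). Taken over the 3 chromosomes, long arms had 12.4 and short arms 12.6 regions per Mb, a ratio of 0.983 (0.859 to 1.12). A long arm up to 1.59 times as dense as its short arm is within the interval on chromosome 7, so these values do not show that the arms are alike.

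**Figure D1:**
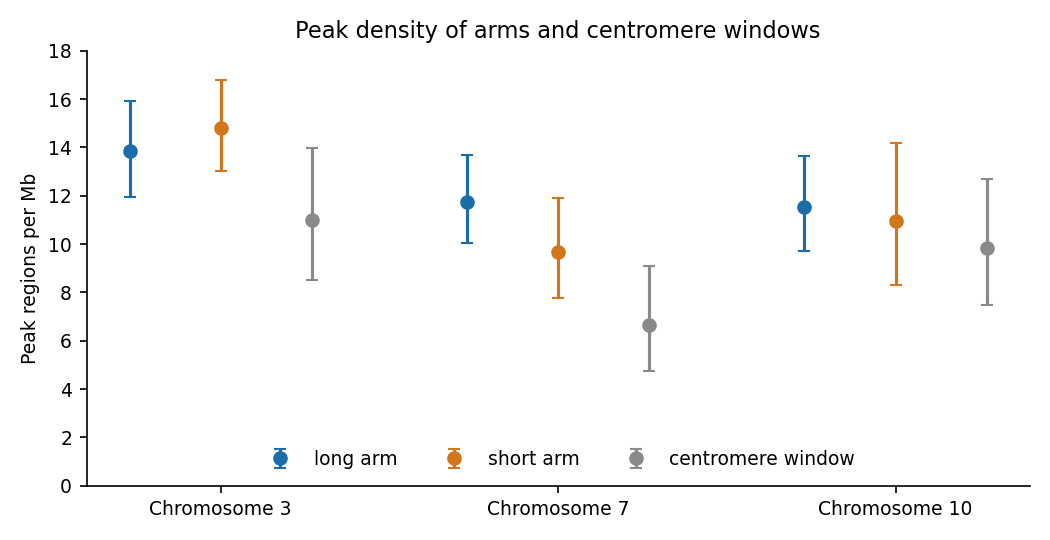
Peak regions per Mb (y axis, from 0) on the long arm, the short arm and the window within 3 Mb of the centromere, for chromosomes 3, 7 and 10 (x axis). Points are counts divided by length and bars are 95% Poisson intervals; both arms of chromosome 3 lie above the other 4 arms, and the window of chromosome 7 is lowest, at 6.67 per Mb.

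The short arm of chromosome 10 had a density whose difference from the other arms lay within counting error. Its 11.0 regions per Mb compared with 12.6 per Mb over the other 5 arms, a ratio of 0.867 (0.651 to 1.14), whose interval includes 1. The arm is 5.2 Mb long, and a density as low as 0.651 times that of the other arms lies within the interval. It lay at 1.13 times (0.798 to 1.60) the short arm of chromosome 7, and at 0.740 times (0.544 to 0.991) the short arm of chromosome 3. The lowest density of the 6 arms was that of the short arm of chromosome 7, at 0.773 times (0.620 to 0.952) the 12.5 per Mb of the 6 arms together. The chromosome 3 short arm stood at 1.18 times (1.04 to 1.34) that mean, and the intervals of the other 4 arms included 1. Intervals against that mean carry the counting error of the single arm only. They take the mean, which includes that arm, as known. Under stricter limits the intervals of the chromosome 3 and chromosome 7 short arms came to include 1. The chromosome 3 short arm stood at 1.16 times (0.996 to 1.35) where −log10 q was 2 or more and 1.06 times (0.693 to 1.56) where it was 5 or more, and in the second case alone that of the chromosome 7 short arm did so too, at 0.883 times (0.456 to 1.54).

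Per Mb, more sequence was covered on both arms of chromosome 3 than on the other 4 arms. Regions covered 3034 bp per Mb on the long arm and 3100 bp per Mb on the short arm of chromosome 3, 2404 and 1905 on those of chromosome 7, and 2550 and 2314 on those of chromosome 10. In all, the arm regions covered 188 kb.

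Density along the arms was counted in bins, and differences between bins were not tested. In bins of 3 Mb counted from 3 Mb beyond the centromere, the short arm of chromosome 3 had 19.3 regions per Mb (14.7 to 25.0) at 6 to 9 Mb and 12.7 (8.96 to 17.4) at 15 to 18 Mb. Its long arm alternated, with 48, 30 and 49 regions in the first 3 bins of equal length (95% Poisson intervals 11.8 to 21.2, 6.75 to 14.3 and 12.1 to 21.6 per Mb). The long arm of chromosome 7 was sparse nearest the centromere, with 8.33 (5.39 to 12.3) at 3 to 6 Mb and 9.33 (6.20 to 13.5) at 6 to 9 Mb, and had 16.7 (12.4 to 22.0) at 9 to 12 Mb. The long arm of chromosome 10 likewise had 7.67 (4.86 to 11.5) at 3 to 6 Mb, then 13.7 (9.81 to 18.5) and 14.7 (10.7 to 19.7). The short arms of chromosomes 7 and 10 held 27 to 34 regions in every full bin, at most 11.3 per Mb.

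Splitting each arm at its midpoint gave outer-to-inner density ratios whose intervals included 1. The widest departures were on the long arm of chromosome 7, with 96 regions in the outer part and 72 in the inner part, a ratio of 1.33 (0.972 to 1.84), and on the short arm of chromosome 3, with 108 and 135, a ratio of 0.800 (0.615 to 1.04). The other 4 arms had ratios from 0.940 to 1.16. The median fold differed most on the short arm of chromosome 10, at 3.16 (2.73 to 3.38) over the 29 outer regions and 2.56 (2.37 to 2.90) over the 28 inner ones, with intervals that overlap.

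**Figure D2:**
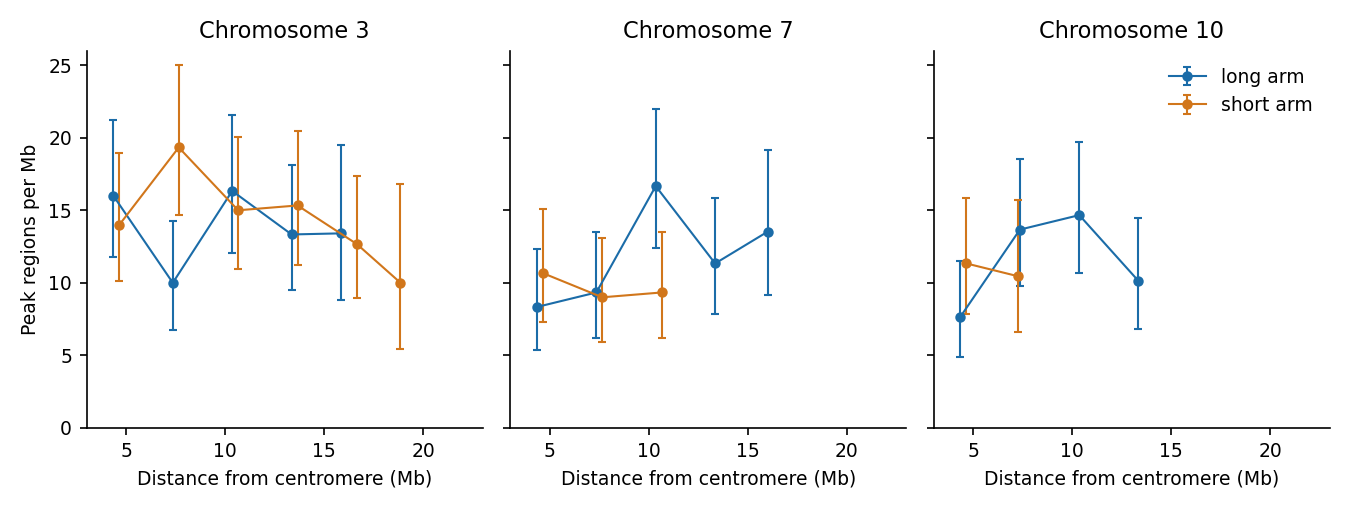
Peak regions per Mb (y axis) against distance from the centromere (x axis, Mb) in 3 Mb bins, with 1 panel per chromosome and 1 line per arm; bars are 95% Poisson intervals, and an end bin under 1 Mb long is left out. The long arms of chromosomes 7 and 10 start at 8.33 and 7.67 per Mb nearest the centromere, and the short arm of chromosome 3 reaches 19.3 per Mb.

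At the scale of 1 Mb, the densest windows were on chromosome 3. The window from 28 to 29 Mb on its long arm and that from 10 to 11 Mb on its short arm held 25 regions each (95% Poisson interval 16.2 to 36.9), against window means of 13.7 and 14.8 on the same arms. The short arm also held a sparse window with 6 regions, from 8 to 9 Mb. On chromosome 7 the densest windows were 23 to 24 Mb on the long arm with 17 regions and 4 to 5 Mb on the short arm with 14, and the window next to the second, 5 to 6 Mb, was the sparsest of that arm with 6. On chromosome 10 they were 19 to 20 Mb on the long arm with 19 regions and 2 to 3 Mb on the short arm with 17. Counts per window varied by 1.42 and 1.55 times their mean (variance over mean) on the long and short arms of chromosome 3. On chromosome 7 the same measure was 0.961 and 0.802, and on chromosome 10 it was 1.06 and 1.18, over only 5 to 13 windows an arm. Where this measure is above 1, density and ratio intervals that use those counts can be too narrow. Whether the values differ from 1 was not tested. The windows were picked for their extreme counts, which the intervals do not allow for.

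Neighbouring arm regions lay a median of 51.4 kb apart on the long arm and 50.2 kb on the short arm of chromosome 3. The medians were 59.9 and 75.3 kb on the long and short arms of chromosome 7, and 55.8 and 58.7 kb on those of chromosome 10. The longest stretch without a region was 514 kb on the short arm of chromosome 10, from 4666748 to 5180927, which ends at the region nearest the 3 Mb limit. On the other arms the longest stretches ran from 376 kb on the long arm of chromosome 7 to 483 kb on the long arm of chromosome 10, from 13954613 to 14437137. Gaps under 5 kb made up 3.45% (3 of 87) of those on the short arm of chromosome 7 and 10.7% (6 of 56) of those on the short arm of chromosome 10. On the remaining arms the share ran from 7.30% to 8.29%, and differences between arms were not tested.

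Signal height did not separate the arms. Pileup is the number of ChIP fragments that cover a summit, and a merged region takes the values of its highest-fold summit. The median pileup was 23 fragments on the long arm of chromosome 3 (95% interval of the median, over regions, 22 to 24) and 23 on its short arm (22 to 24). It was 25 (23 to 26) and 23.5 (22 to 25) on the long and short arms of chromosome 7, and 24 (22 to 25) and 22 (21 to 26) on those of chromosome 10. All 6 intervals overlap. The lower quartiles were 19 or 20 fragments on each arm and the upper quartiles ran from 27 to 30.3. The upper ends differed: the highest pileup was 49 on the long and 40 on the short arm of chromosome 7, whereas each arm of chromosomes 3 and 10 held at least 1 region above 100.

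Pileup went with the input at the same place. Local background was recovered from the authors' pileup and fold enrichment as described with the methods, in fragments on the scale of the ChIP library. Its median was 7.43 and 7.45 fragments on the long and short arms of chromosome 3, 8.19 and 7.45 on those of chromosome 7, and 7.45 and 6.77 on those of chromosome 10. Across the 888 regions, pileup and background had a Spearman rho of 0.787, as a description: both come from the same libraries, and the caller admits a region only when its pileup exceeds what the background allows. The arm with the highest median pileup, the long arm of chromosome 7, also had the highest median background, and the arm with the lowest, the short arm of chromosome 10, had the lowest; the part of background in these medians was not tested.

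Fold enrichment, the authors' ratio of ChIP pileup to local input background, was likewise close on all arms. Its median was 2.79 (2.68 to 2.87) on the long and 2.71 (2.61 to 2.74) on the short arm of chromosome 3, 2.63 (2.59 to 2.73) and 2.72 (2.59 to 2.90) on the long and short arms of chromosome 7, and 2.72 (2.60 to 2.81) and 2.86 (2.56 to 3.08) on those of chromosome 10. Of the 888 regions, 617 had a fold from 2 to under 3, 228 from 3 to under 4, 25 from 4 to under 5 and 3 of at least 5, and 15 were under 2. All 3 of at least 5-fold lay on chromosome 3. They made up 0.338% of the arm regions, against 0.715% in the whole list. Outside the arms, the centromere windows of chromosomes 7 and 10 held 1 region of at least 5-fold each, and that of chromosome 3 held 0.

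Width varied little as well. The median width was 189.5 bp (183 to 202) on the long and 187 bp (181 to 196) on the short arm of chromosome 3. On chromosome 7 it was 185 bp on both arms, with intervals of 175 to 193 on the long and 175 to 198 on the short arm. On chromosome 10 the long arm had the widest regions of the 6 arms, with a median of 211 bp (188 to 224) and an upper quartile of 257 bp, against 184 bp (171 to 199) and 224 bp on its short arm. These intervals overlap too. The outer and inner parts of the long arm of chromosome 10 had medians of 217 bp (191 to 229) and 193 bp (177 to 234). On its short arm the order was the other way, with 171 bp (164 to 201) in the outer and 190.5 bp (172 to 215) in the inner part. A width of 149 bp, the narrowest in the list, was recorded for 87 of the 888 regions (9.80%), near the 8.63% of all regions. Width went with neither pileup (Spearman rho −0.0575 over the 888 regions) nor upward with fold (−0.178), again as descriptions across regions that share the same 2 libraries.

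**Figure D3:**
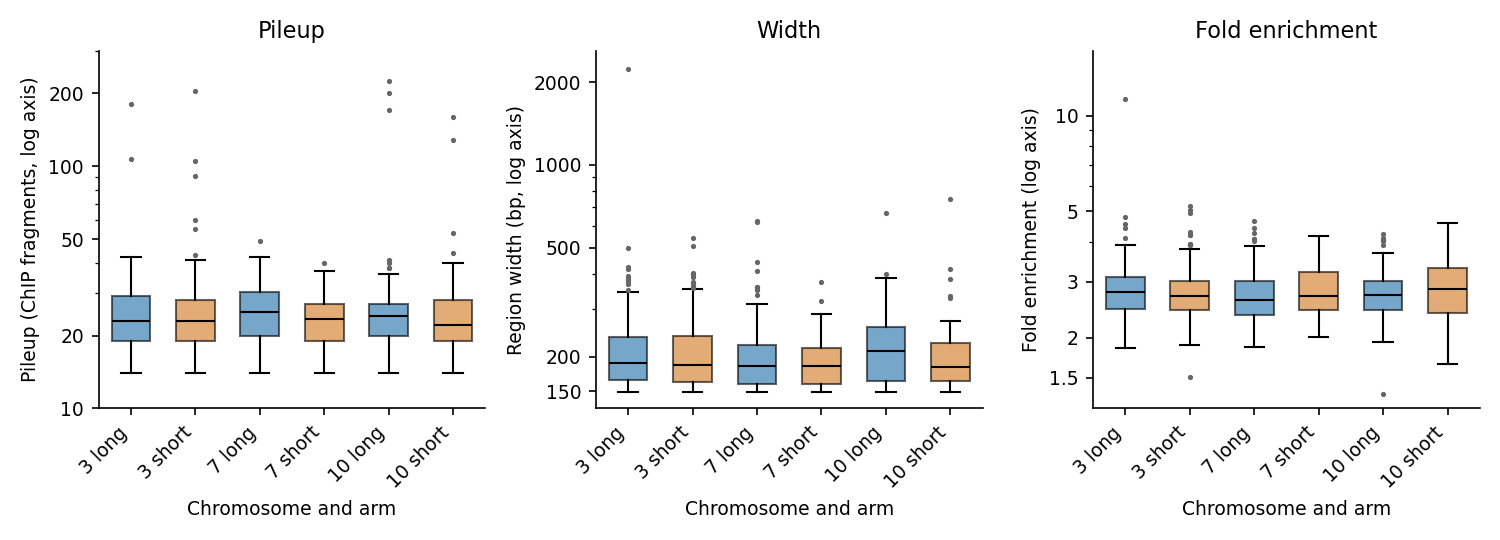
Pileup in ChIP fragments, region width in bp and fold enrichment (y axes, all logarithmic) of the 888 regions by chromosome and arm (x axis). Boxes span the quartiles with the median as a line, whiskers reach the last value within 1.5 times the box, and points lie beyond; medians run from 22 to 25 fragments, 184 to 211 bp and 2.63 to 2.86-fold.

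The best enriched region of the arms was on the long arm of chromosome 3, from 28826202 to 28828434, in the densest window of that arm. It was also the widest of the 888, at 2233 bp, and the only one of them with 5 summits. From low to high coordinate their pileups were 107, 48, 65, 63 and 79 fragments, over backgrounds of 8.54, 5.97, 9.68, 7.32 and 8.19. Their folds were 11.3 (95% Poisson interval 9.29 to 13.7), 7.03 (5.22 to 9.28), 6.18 (4.79 to 7.85), 7.69 (5.94 to 9.81) and 8.70 (6.91 to 10.8). Intervals of single folds, here and below, carry the counting error of the pileup alone and take the background as known. The first and the last summit stood 1.78 kb apart. Next on that arm came 23462681 to 23462909 with 32 fragments at 4.80-fold (3.33 to 6.71), and 24881571 to 24881726 with 32 fragments at 4.58-fold (3.17 to 6.40).

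On the short arm of chromosome 3 the best enriched region was 15907715 to 15907942, 3.49 Mb from the centromere, with 43 fragments (31.1 to 57.9) over a background of 7.45, or 5.21-fold (3.80 to 6.98). The region from 5346793 to 5347027 followed with 32 fragments at 5.04-fold (3.50 to 7.05). The third, from 10953615 to 10953799 inside the densest window of that arm, had 28 fragments at 4.95-fold (3.35 to 7.09) over 4.85 background fragments. That is the lowest background in the list, and 174 regions of the list, 30 of them on these arms, stood within 0.01 fragments of it.

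On chromosome 7 no arm region reached 5-fold. The long arm had its highest at 21910270 to 21910422, with 35 fragments and 4.67-fold (3.30 to 6.45), then 23013479 to 23013646 in its densest window, with 32 fragments and 4.44-fold (3.08 to 6.21), and 17480306 to 17480499, with 24 fragments and 4.27-fold (2.80 to 6.27). The short arm had 3928238 to 3928401 with 24 fragments and 4.17-fold (2.73 to 6.13), 3656576 to 3656804 with 31 fragments and 4.16-fold (2.86 to 5.84), and 588842 to 589094 with 24 fragments and 4.04-fold (2.65 to 5.94). Their intervals overlap throughout, so their order cannot be told from counting error.

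On chromosome 10 the long arm had its highest fold at 19475495 to 19475725, in its densest window, with 38 fragments and 4.24-fold (3.03 to 5.78). The region from 14504051 to 14504225 had 32 fragments and 4.13-fold (2.86 to 5.78). The third, 20455051 to 20455210, was of another kind, with 170 fragments (145 to 198) over a background of 41.0, or 4.08-fold (3.49 to 4.73). On the short arm, 755689 to 755862 had 26 fragments at 4.59-fold (3.06 to 6.65), 4584367 to 4584604 had 35 at 4.06-fold (2.86 to 5.60), and 2182830 to 2183163, which held 2 summits, had 32 at 3.91-fold (2.71 to 5.47). Apart from the region at 28826202 on chromosome 3, the best regions of the 6 arms thus had overlapping intervals. These regions were selected on fold, and their intervals make no allowance for that selection.

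**Figure D4:**
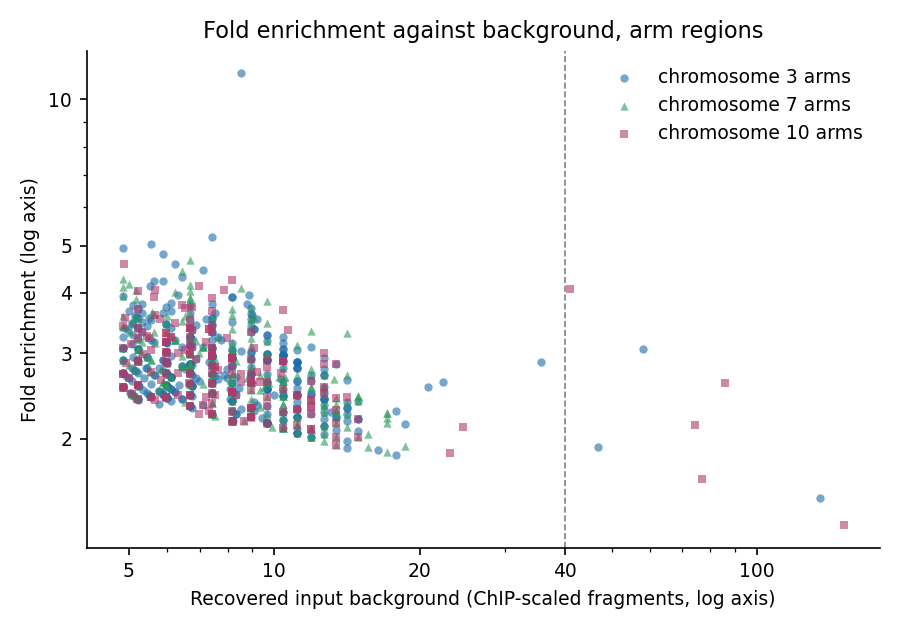
Fold enrichment (y axis, logarithmic) against recovered input background in ChIP-scaled fragments (x axis, logarithmic) for the 888 regions, marked by chromosome, with a dashed line at a background of 40. The lower edge of the cloud is the calling limit, the point at 11.3-fold is the chromosome 3 region described above, and 8 regions lie right of the line, 0 of them on chromosome 7.

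Regions with high signal in both libraries were rare on these arms. A recovered background above 40 fragments was found at 8 of the 888 regions, 0.901% (95% Clopper-Pearson interval 0.390 to 1.77), where 4.03% of all 4193 regions passed that limit. The other 9 chromosomes had 152 of 3135, or 4.85% (4.12 to 5.66), and the intervals do not overlap. Such regions clustered there, with 86 of the 152 on chromosome 12, so that interval can be too narrow. Without chromosome 12 the share was 2.34% (1.81 to 2.97), and chromosomes 2, 5 and 6 had shares as low as the arms, from 0% to 0.838%. These comparisons leave the centromere windows out for chromosomes 3, 7 and 10 alone. Taken whole, chromosomes 3, 7 and 10 had 13 of 1053, or 1.23% (0.659 to 2.10). That interval lies below the one of the other 9 chromosomes but overlaps the one without chromosome 12. Of the 8 arm regions, 3 lay on the long arm and 2 on the short arm of chromosome 10, 1 on the long arm and 2 on the short arm of chromosome 3, and 0 on chromosome 7 (0 of 256, interval 0 to 1.43%). Their folds ran from 1.33 to 4.08. On chromosome 10 they included the highest pileup of the arms by the value of the highest-fold summit, 225 fragments (197 to 256) at 20478301 to 20478488 over a background of 85.6, 23.1 kb beyond the region of 170 fragments. Near the start of the chromosome, the region from 1123 to 1275 had 160 fragments over 74.5. The second widest arm region, 749 bp from 2756625 to 2757373 on the short arm, held 3 summits with 241, 235 and 128 fragments over backgrounds of 151, 172 and 76.9. On the short arm of chromosome 3 a pair at 13540748 and 13642758 had 91 and 204 fragments over 46.9 and 135. The third highest pileup by the same measure, 201 fragments (174 to 231) at 14535235 to 14535468 on the long arm of chromosome 10, stood over a background of 151 and gave the lowest fold, 1.33.

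Strongly called regions made up a somewhat lower share on these arms than on the other chromosomes, with intervals that met. A −log10 q of at least 5 was listed for 106 of the 888 regions, 11.9% (9.88 to 14.2), where 14.8% of all regions passed. The share was 15.3% (14.1 to 16.6) on the other 9 chromosomes. Without regions of background above 40 the shares were 11.6% (9.55 to 13.9) and 14.3% (13.0 to 15.6). With every background kept, the share was 18.8% (13.1 to 25.6) in the centromere windows. The arms leave these windows out and the other chromosomes do not. Chromosomes 3, 7 and 10 taken whole had 13.0% (11.0 to 15.2). By arm, the share was 13.9% on the long and 10.7% on the short arm of chromosome 3, 11.9% and 13.6% on those of chromosome 7, and 9.42% and 14.0% on those of chromosome 10, with overlapping intervals. A q of at most 0.01 was listed for 640 of the 888, 72.1%, near the 73.7% of all regions. A fold of at least 4 was reached by 28, or 3.15%, near the 3.63% of all regions.

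Several summits were reported in 47 of the 888 regions (5.29%), near the 5.32% of the whole list. Without regions of background above 40 the share was 5.23% (3.85 to 6.91) on the arms, against 4.25% in the whole list and 3.89% (3.22 to 4.65) on the other 9 chromosomes, and these intervals overlap. By arm they made up 8 of 194 on the long and 12 of 243 on the short arm of chromosome 3, and 10 of 138 on the long and 4 of 57 on the short arm of chromosome 10. On chromosome 7 they were 12 of 168 on the long arm, 7.14% (3.75 to 12.1), and 1 of 88 on the short arm, 1.14% (0.0288 to 6.17). A width of at least 500 bp was found in 7 of the 888 (0.788%), where 1.07% of all regions passed. The third widest of them, 668 bp from 11398202 to 11398869 on the long arm of chromosome 10, had a single summit with 21 fragments at 2.21-fold. Of the 7, a pair lay 17.5 kb apart on the long arm of chromosome 7, at 19515331 to 19515947 and 19533436 to 19534061. Each held 3 summits, with 37, 35 and 30 fragments in the first and 30, 27 and 23 in the second, all from 2.10 to 2.65-fold.

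**Figure D5:**
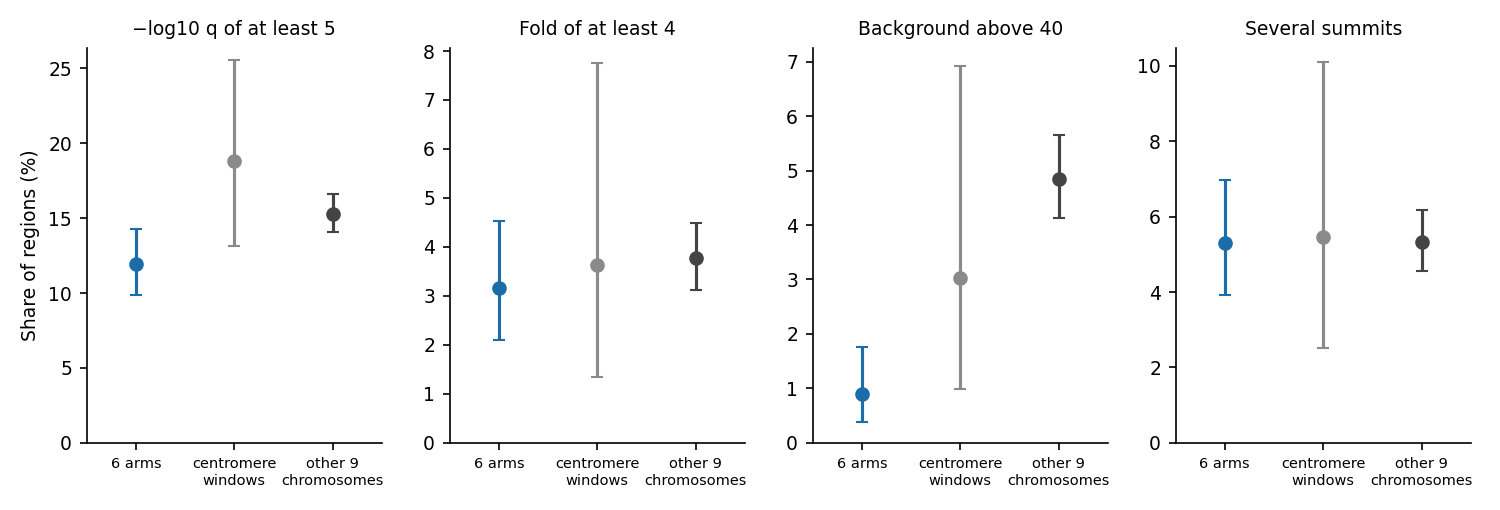
Share of regions in percent (y axes, each from 0) that pass 4 criteria on the 6 arms together, in the 3 centromere windows and on the other 9 chromosomes (x axis); bars are 95% Clopper-Pearson intervals. The arms are lowest for a background above 40, at 0.901% against 4.85% on the other 9 chromosomes, and the shares with several summits lie between 5.29% and 5.45%.

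The arms were denser than the stretches around their own centromeres. The 888 arm regions gave 12.5 per Mb (11.7 to 13.4), against 165 regions or 9.17 per Mb (7.82 to 10.7) in the windows up to 3 Mb on either side of the 3 centromeres, a ratio of 1.37 (1.15 to 1.62). The ratio was 1.31 (1.01 to 1.72) on chromosome 3, 1.64 (1.17 to 2.35) on chromosome 7 and 1.16 (0.860 to 1.57) on chromosome 10. Among strongly called regions it lay on the other side of 1, at 0.867 (0.577 to 1.34), where the arms had 106 regions or 1.49 per Mb and the windows 31 or 1.72 per Mb. The direction seen over the whole list was thus not seen among its strongest regions, where the interval includes 1. The median fold was 2.72 (2.67 to 2.73) on the arms and 2.84 (2.72 to 2.89) in the windows, and the median width 188 bp (185 to 192) and 180 bp (170 to 191).

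The arm regions nearest to the 3 Mb limit lay 3.02 to 3.20 Mb from the centromere with folds of 2.05 to 3.33, and the window regions nearest to it lay 2.64 to 2.98 Mb away with folds of 2.71 to 3.26.

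Set beside the other 9 chromosomes taken whole, which had 3135 regions and 11.1 per Mb (10.7 to 11.5), the arms were 1.13 times (1.05 to 1.22) as dense. Among strongly called regions the order was the other way, with 1.49 per Mb (1.22 to 1.81) on the arms and 1.69 (1.55 to 1.85) on the other chromosomes, and these intervals overlap. Chromosomes 3, 7 and 10 taken whole had 11.8 per Mb (11.1 to 12.6), a ratio of 1.07 (0.997 to 1.15). The comparisons of the arms, those of strongly called regions and of medians included, leave the centromere windows out for chromosomes 3, 7 and 10 alone. Taken whole, these chromosomes had 1.54 strongly called regions per Mb (1.29 to 1.82). The median pileup was 23 fragments (23 to 24) on the arms and 24 (24 to 25) on the other chromosomes, the median fold 2.72 on each, and the median width 188 bp (185 to 192) and 193 bp (190 to 195).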

How the data were processed

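Reads were aligned with BWA and peaks called with MACS2, per the submitters' processing notes; versions, build, filters and duplicate handling are not given in the sources that were used. Pileup is a deposited signal, the ChIP fragments at the summit, and fold enrichment a deposited ratio of ChIP to local input. The deposited −log10 p-value and −log10 q-value columns had damaged headers and were identified by order and values. All 4445 summits matched the authors' summit list by position. Library depths are unknown.

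Members and criteria were chosen with earlier results of these data known. Background was recovered as (pileup + 1) / fold − 1, and a Poisson upper tail computed from it matched the authors' −log10 p to within 0.000322. Short arms were measured from coordinate 1 and long arms to the last region, with assembly gaps not removed. Density intervals are exact Poisson, ratio intervals between separate sets exact conditional binomial and median intervals from order statistics, all at 95%. For a single arm against all arms together, the arm's exact Poisson interval was divided by the density of all arms. That density was taken as known, although it includes the arm itself. Density, ratio, share and median intervals treat regions as independent. Those of density, ratio and median were tested on simulated data, which cannot show whether the regions of this list are independent. Regions named are the 3 of highest fold per arm, the 3 widest, the 3 of highest pileup and those at the 3 Mb limit; regions of high background and a pair of wide regions on chromosome 7 were chosen after their values were seen. The list ends at a q of 0.0491. Python 3.11.15, pandas 2.3.3 and SciPy 1.17.1 were used.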

Additional observations from a re-analysis of the deposited data

How the results depend on the processing

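Of 225 values recomputed under 8 alternatives, 208 stayed within the 95% interval of the reported value. Some alternatives could move values only a little. Leaving out backgrounds above 40 removes 8 of the 888 arm regions. Taking the highest-pileup summit can alter only the 47 with several summits. At a −log10 q of 5 or more, 7 of 12 values stayed within the interval. The density ratio of chromosome 3 arms over those of chromosomes 7 and 10 ran from 1.25 to 1.33 over 7 alternatives, and at a −log10 q of 5 or more its interval, 0.894 to 1.99, included 1. The interval for the chromosome 3 short arm against the 6 arms together came to include 1 under the limits of 2 and 5 on −log10 q, and that for the chromosome 7 short arm under the limit of 5. With summits as units, the interval of the chromosome 7 long-to-short ratio, 1.30, no longer included 1. Among regions whose −log10 q was 5 or more, few in number, the ratio of arms over centromere windows was 0.867, the chromosome 3 long arm stood at 1.29 and the chromosome 10 long arm at 0.728 times the 6 arms together, and the long-to-short ratios were 1.22 on chromosome 3 and 0.707 on chromosome 10. At a q of at most 0.01, which removes low folds by construction, median pileup was 25 on the long and 25.5 on the short arm of chromosome 3. Median fold was 2.94 and 2.88 on those arms, 2.83 and 3.05 on the long and short arms of chromosome 7 and 2.89 on the long arm of chromosome 10, and median width was 172 bp on the short arm of chromosome 7. With summits as units, arms over the other chromosomes gave a median pileup ratio of 0.920 and a median fold ratio of 1.01. The share of summits in regions with several was then 10.6%, and in regions of at least 500 bp 2.02%, since such regions count repeatedly. Limits of 2 and 5 Mb, leaving out backgrounds above 40, spans between outermost regions and values of the highest-pileup summit left every value recomputed under them within its interval. No paired analysis was possible because each group has 1 library, so none could be left out either. At the lowest background, 4.85 fragments, the smallest pileup was 14 fragments and the smallest fold 2.56. Lower folds at that background are not on the list, which ends at a q of 0.0491.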
